A study of Rattus norvegicus with 20 samples.

Results

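The genes described here are 48 chemokine, cytokine, interferon-response, complement and caspase genes of cultured rat epithelial cells. They were chosen by the start of the gene symbol (Cxcl, Ccl, Il with a digit, Tnf, Nlr, Irf, Ifi, Isg, Gbp, Cd74, Cf with one letter, C1, C3, Csf, Casp and others that found no gene), leaving out Casp1, Cxcl2 and the C1ql and C1qtn genes. The files hold 32494 genes by Ensembl identifier. Only the 2311 of them that the study's supplementary lists, as far as at hand, pair with a symbol could be searched. Those lists hold genes for which cells of the other tissues, before or after transplantation, differed from cells of the whisker follicle. The list of all such genes was at hand only in shortened form, with mostly symbols early in the alphabet. The 48 genes are therefore no full roster of immune genes, and whisker levels bear on the choice. Of antigen presentation only Cd74 and Nlrc5 were found, too few to describe that pathway. The RT1, Tap, Psmb8, Psmb9, Oas, Mx, Stat and Tlr genes are not analysed here. All 48 genes passed the filter on low counts (CPM, the reads of a gene scaled to equal library size, of 1 or more in at least 1 sample), which left 13302 genes for testing.

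RNA was sequenced from epithelial cells of rats that express EGFP throughout the body under the CAG promoter (SD-Tg(CAG-EGFP)4 Osb, Sprague-Dawley), grown on irradiated mouse 3T3-J2 feeder cells. The tissues were whisker follicle, thymus, vagina, trachea and bladder (dome). Cells were taken before transplantation (1st round) or cultured again after a stay in developing mouse skin grafted on nude mice (2nd round, called recovered). In both rounds, cultured cells were sorted on EGFP expression before RNA was extracted. Each of 10 groups had 2 samples. Donor rats were at postnatal day (PN) PN201 for bladder, PN200 for trachea and vagina, PN137 for thymus and PN57 for whisker. The whisker cells were clone 7 before transplantation and its subclone 14 after. The thymic cells are labelled as clone 9 and 907, although the titles of the thymic samples of both rounds call them bulk. Nothing states that the 2 samples of a group came from separate animals or transplants, so the p values measure only the spread between these samples, which may be technical.

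Chemokines are small secreted proteins that draw leukocytes into tissue, and epithelial cells release them after injury or contact with microbes. Many of their genes, together with those for colony-stimulating factors, are switched on by NF-kB. Interferon-response genes such as Ifit2 and Isg15 are switched on by interferon through STAT and IRF factors. Complement is a cascade of serum proteins, started among others by the proteases C1r and C1s, that meets in the cleavage of C3 and is held in check by inhibitors such as factor I. Caspases are the proteases of cell death, inflammasome activation and, for caspase 14, of cornification.

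The promoters of 5 genes named below, each with an NF-kB match, are shown first. RefSeq promoters of the rat assembly GRCr8, from 250 bases before to 50 bases after the gene start, were at hand for 30 of the 48 genes. They were searched on both strands for the NF-kB consensus (GGG, a purine, any 2 bases, 2 pyrimidines, CC) and for the interferon-stimulated response element GAAANNGAAA (ISRE). Capitals mark the matches, and overlapping matches run together. The promoters lie at chr14:17596368-17596667 (minus strand) for Cxcl6, chr14:17479272-17479571 (minus strand) for Cxcl1, chr14:15988816-15989115 (plus strand) for Cxcl10, chr9:91836909-91837208 (plus strand) for Ccl20 and chr1:15543930-15544229 (minus strand) for Tnfaip3.
Cxcl6: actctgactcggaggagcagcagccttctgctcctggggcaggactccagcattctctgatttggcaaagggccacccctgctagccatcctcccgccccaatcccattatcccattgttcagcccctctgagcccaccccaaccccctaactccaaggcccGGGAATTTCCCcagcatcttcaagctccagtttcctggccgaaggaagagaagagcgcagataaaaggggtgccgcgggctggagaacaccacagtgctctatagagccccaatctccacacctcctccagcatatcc
Cxcl1: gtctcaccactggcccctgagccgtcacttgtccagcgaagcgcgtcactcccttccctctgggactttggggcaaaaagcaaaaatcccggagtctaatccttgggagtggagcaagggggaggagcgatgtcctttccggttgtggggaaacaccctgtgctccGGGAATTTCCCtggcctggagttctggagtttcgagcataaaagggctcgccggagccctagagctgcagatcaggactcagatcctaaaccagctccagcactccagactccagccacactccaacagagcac
Cxcl10: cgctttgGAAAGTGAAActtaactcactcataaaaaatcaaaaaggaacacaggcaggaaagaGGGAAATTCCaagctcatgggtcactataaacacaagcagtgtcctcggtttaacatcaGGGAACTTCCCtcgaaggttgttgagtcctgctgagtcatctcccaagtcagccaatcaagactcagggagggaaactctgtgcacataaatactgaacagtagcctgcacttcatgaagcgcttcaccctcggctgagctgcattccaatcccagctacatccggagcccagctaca
Ccl20: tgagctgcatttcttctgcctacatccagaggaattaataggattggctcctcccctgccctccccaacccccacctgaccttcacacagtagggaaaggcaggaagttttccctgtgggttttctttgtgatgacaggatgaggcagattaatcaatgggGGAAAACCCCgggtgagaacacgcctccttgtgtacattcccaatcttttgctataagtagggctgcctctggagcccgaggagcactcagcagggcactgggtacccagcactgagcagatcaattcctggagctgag
Tnfaip3: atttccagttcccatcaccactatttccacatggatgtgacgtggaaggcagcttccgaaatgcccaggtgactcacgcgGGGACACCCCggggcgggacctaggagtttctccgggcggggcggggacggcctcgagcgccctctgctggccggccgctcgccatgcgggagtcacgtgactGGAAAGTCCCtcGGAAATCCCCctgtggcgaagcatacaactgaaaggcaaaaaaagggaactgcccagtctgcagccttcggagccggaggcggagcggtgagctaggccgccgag

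Cxcl6 and Cxcl1, whose products attract neutrophils, carried 2 overlapping NF-kB matches each, starting at bases -88 and -87 in Cxcl6 and at -84 and -83 in Cxcl1. Ccl20 had 1 match, at -89, and Tnfaip3, whose product restrains NF-kB, had 3, at -170, -67 and -55. Cxcl10 held NF-kB matches at -187, -128 and -127 and an ISRE at -243. Counted by gene, since some genes have more than 1 promoter, 12 of the 30 genes held an NF-kB match and 4 an ISRE, while 8.16% and 4.12% of all 27457 genes with promoters of this length did. A further motif searched for, TTCNNNGAA (GAS), was held by 6 of the 30 genes and by 9.39% of all genes with promoters. The promoters of C3 and C1r, not shown, held none of these motifs. A match is a run of letters and does not show that a factor binds there.

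Gene counts summed to 20723083 in the shallowest sample and 29824855 in the deepest, and 3 counts, taken as the lowest level shown, came to 0.099 to 0.143 CPM. Sample pairs were never as close as counting error alone would leave them, and those of thymus and bladder before transplantation lay farthest apart. The epithelial markers Cdh1 and Epcam, the 2 of 5 with a name, summed to between 999.6 and 2939 CPM in all samples. Of 7 fibroblast markers, the 4 with a name (Col1a1, Col3a1, Col6a3 and Dcn) summed to 202.9 to 264.9 CPM in bladder and 280.9 to 288.2 CPM in trachea before transplantation and to 28.1 to 31.2 and 39.7 to 47.0 CPM after recovery, with none at 0. In thymus it moved the other way, from between 21.9 and 22.5 to between 41.8 and 45.6 CPM, and in vagina and whisker it lay between 24.0 and 49.1 CPM in both rounds. Of 10 leukocyte markers, the 5 with a name summed to 29.4 to 35.7 CPM in bladder before and 55.6 to 57.3 CPM after recovery. Within that sum, Cd68, which other cells also express, rose from 14.0 to 54.0 CPM. By contrast, Lcp1 fell from 15.8 to 1.29 CPM and Cd53 from 2.16 to 0.671 CPM. Coro1a was not called, and Cytip was at 0 in bladder before transplantation. In trachea the leukocyte sum moved from between 21.6 and 23.5 to between 57.1 and 64.0 CPM, and Lcp1 from 6.25 to 1.32 CPM. In vagina the sum moved down, from between 62.0 and 65.6 to between 15.9 and 18.1 CPM, nearly all of it Cd68, while thymus (28.1 to 33.5 CPM) and whisker (10.4 to 13.1 CPM) kept to narrow ranges. Within the thymic sum Cd53 rose from 0.241 to 2.62 CPM and Lcp1 from 0.870 to 2.24 CPM, Coro1a fell from 1.20 to 0.285 CPM, and Cd68 and Cytip were not called. Endothelial markers had no name and are not analysed here. In bulk samples, fewer cells of a type and less RNA per cell cannot be told apart. The part of these cells in the results for bladder, trachea, vagina and thymus was not tested.

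Across the 5 tissues, the change from cultures before transplantation to recovered cells was tested with limma voom, and a gene was called at an adjusted p under 0.05 and a change of at least 2-fold. In bladder, 10 of the 48 genes rose and 16 fell, where 10.1% of all tested genes rose and 11% fell. In trachea, 6 rose and 20 fell, against 4.39% and 8.04% of all genes. In vagina, 4 rose and 7 fell, against 4.25% and 7.53%. In thymus the balance was the other way, with 15 genes higher and 9 lower, against 8.49% and 6.89%. In whisker, 5 rose and 6 fell, against 2.15% and 3.83%. The median log2 change of the 48 genes was -0.27 in bladder, -0.80 in trachea, -0.16 in vagina, 0.10 in thymus and 0.16 in whisker, beside medians between -0.01 and 0.02 over all tested genes. Part of this distance from all genes is shared by the 2311 named genes, of which 22.2% fell in bladder, 17.5% in trachea, 17.8% in vagina, 14.6% in thymus and 9.69% in whisker, compared with 33.3%, 41.7%, 14.6%, 18.8% and 12.5% of the 48. In the same order, 20.9%, 10.1%, 8.96%, 19.3% and 5.67% of the named genes rose, compared with 20.8%, 12.5%, 8.33%, 31.2% and 10.4% of the 48.

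**Figure D1:**
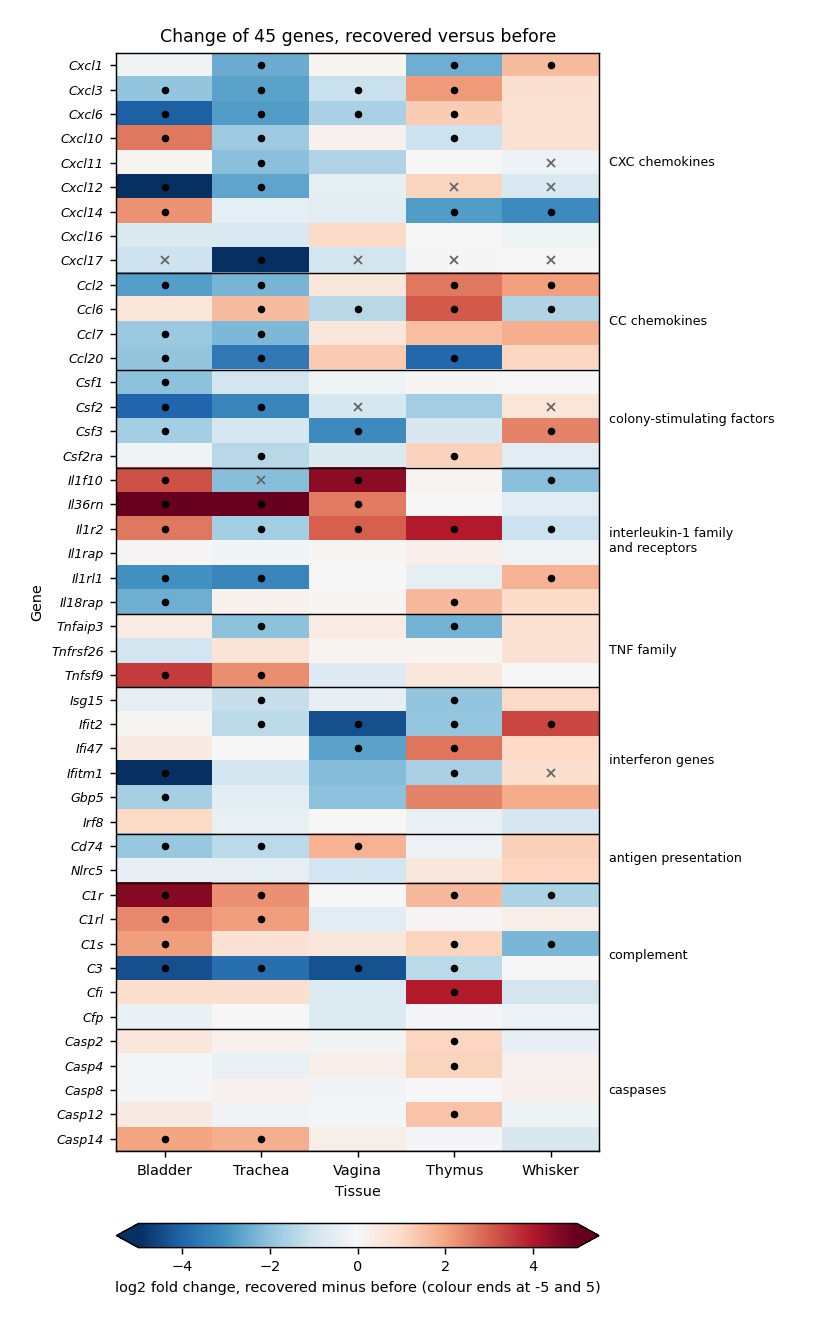
Log2 fold change of 45 of the 48 genes (vertical axis, ordered by role) in each tissue (horizontal axis), recovered minus before transplantation, as colour. Dots mark calls at an adjusted p under 0.05 and 2-fold. Crosses mark genes with both groups averaging at or under 3 counts per sample, for which the colour carries no information. Blue cells gather among the chemokines of bladder and trachea, and C3 is blue and called in 4 tissues.

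Calls in opposite directions were frequent. Of the 48 genes, 19 were called in opposite directions in different tissues, 12 were called only as lower, 8 only as higher and 9 in no tissue. Opposite calls were thus found for 39.6% of these genes, beside 20.6% of the named and 8.38% of all tested genes. Among genes called in at least 2 tissues, the share with opposite calls was 61.3% for the 48 genes, 46.9% for the named and 43.8% for all tested genes. Averaged over the 5 tissues, 4 genes rose and 8 fell, against 2.56% and 5.76% of all genes. Il36rn, Il1r2, Tnfsf9 and C1r rose on this average, and Cxcl6, Cxcl12, Cxcl17, Ccl20, Csf2, Il1rl1, Ifitm1 and C3 fell. Such an average can rest on few tissues. Cxcl17 had at most 2 counts per group outside trachea, and Cxcl12 at most 8 in vagina, thymus and whisker. Cxcl6, Il1rl1, Il1r2 and C1r were called against their average in at least 1 tissue. The change differed among the tissues for 43 of the 48 genes by an F test, but 77.2% of all tested genes passed that test too, so the count says little about these genes in particular. Likewise, 47 genes differed among bladder, trachea, vagina and thymus before transplantation (84% of all genes) and 40 after recovery (80.9% of all genes).

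Among the CXC chemokines, the neutrophil attractants Cxcl6 and Cxcl3 were abundant in bladder and trachea before transplantation and fell there and in vagina, while both rose in thymus. Before transplantation, Cxcl6 stood at 3228 and 1851 CPM in bladder, 487 and 422 in trachea, 100.2 and 90.9 in vagina, 14.1 and 10.6 in thymus and 14.8 and 14.8 in whisker. After recovery, the Cxcl6 levels were 139 and 146 CPM in bladder, 60.9 and 68.4 in trachea, 30.3 and 32.2 in vagina, 29.7 and 29.4 in thymus and 27.0 and 23.1 in whisker. The 2 groups did not overlap in any tissue, and the recovered cells of bladder, trachea and vagina were the lower ones. The log2 change of Cxcl6 was -4.10 ± 0.17 (SE, adjusted p = 1.2e-11) in bladder, -2.81 ± 0.17 (adjusted p = 4.3e-09) in trachea, -1.61 ± 0.19 (adjusted p = 4.92e-06) in vagina and 1.27 ± 0.24 (adjusted p = 0.000375) in thymus. In whisker it was 0.75 ± 0.24 and did not reach 2-fold.

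The cultures before transplantation held Cxcl3 at 1616 and 1034 CPM in bladder, 701 and 645 in trachea, 121 and 152 in vagina, 99.2 and 72.7 in thymus and 140.5 and 147 in whisker. The recovered cells held Cxcl3 at 326 and 339.5 CPM in bladder, 101 and 109.5 in trachea, 64.1 and 62.2 in vagina, 385 and 366 in thymus and 268 and 235 in whisker. Bladder, trachea and vagina again lay lower after recovery, and thymus and whisker higher, without overlap. Cxcl3 had a log2 change of -1.96 ± 0.16 (adjusted p = 4.27e-08) in bladder, -2.67 ± 0.17 (adjusted p = 4.37e-09) in trachea, -1.10 ± 0.17 (adjusted p = 8.46e-05) in vagina and 2.14 ± 0.17 (adjusted p = 3.57e-08) in thymus. The vaginal change fell under 2-fold, at -0.94, without the 2nd sample before transplantation. Cxcl1, another gene for a neutrophil attractant, did not follow the same course. Its mean was 324.5 CPM in bladder before and 282 CPM after recovery, with no call, and it fell in trachea from 198.5 to 35.1 CPM, fell in thymus from 199 to 36.9 CPM and rose in whisker from 25.9 to 76.9 CPM.

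Cxcl10, which draws activated T cells and is a known interferon target, rose in bladder from a mean of 53.3 to 315 CPM (log2 change 2.63 ± 0.21, adjusted p = 1.99e-08). The opposite held for trachea, where it fell from 17.4 to 4.87 CPM, and for thymus, where it fell from 41.1 to 19.3 CPM, a change under 2-fold (-0.96) without the 1st thymic sample before transplantation. Cxcl12, the stromal ligand of Cxcr4, fell in bladder from 193 counts over both samples to 5, a ratio of 34.2 (95% exact interval for counting error, 14.4 to 106), and in trachea from a mean of 1.34 to 0.214 CPM. Cxcl17, a mucosal chemokine, was seen in trachea alone above 3 counts, with 1.15 and 1.49 CPM before transplantation and 0 in both recovered samples, at least 21.4-fold lower against a floor of 3 counts over the group. Cxcl14, a chemokine of resting epithelia, rose in bladder and fell in thymus and whisker. In whisker Cxcl14 went from 26 counts to 2, a ratio of 13.2 (3.31 to 115). Cxcl16 was called in no tissue. Cxcl11, like Cxcl10 an interferon target, fell in trachea only, from 1.28 to 0.292 CPM, and lost that call without any one of the 4 tracheal samples (adjusted p between 0.0557 and 0.143).

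**Figure D2:**
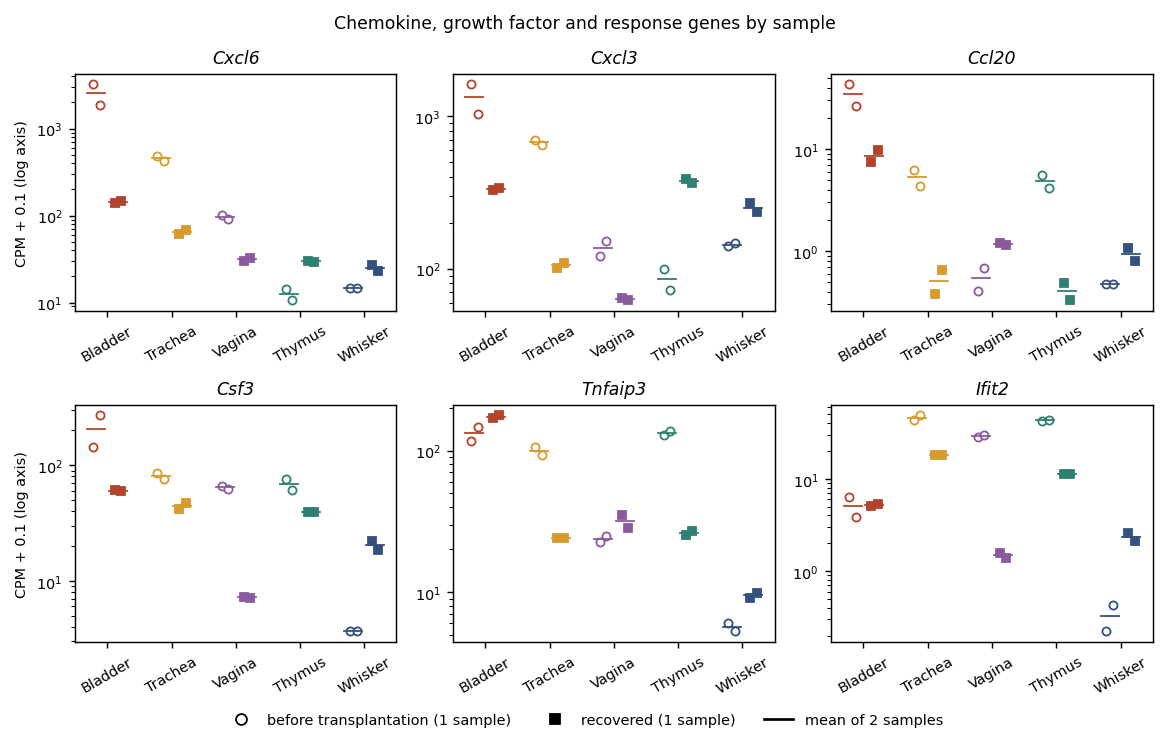
CPM plus 0.1 on log axes for 6 genes, by tissue on the horizontal axis. Open circles are single samples before transplantation, filled squares are single recovered samples, and lines are means of 2 samples. Cxcl6 and Cxcl3 drop in bladder, trachea and vagina and lie higher after recovery in thymus, and Ifit2 drops in vagina from 28.4 and 29.4 CPM to 1.47 and 1.29 CPM.

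The CC chemokines also moved in different directions among the tissues, but not along the lines of Cxcl6 and Cxcl3. Ccl20 recruits cells that bear Ccr6, and Ccl2 recruits monocytes. Levels of Ccl20 before transplantation were 43.0 and 26.2 CPM in bladder, 6.08 and 4.26 in trachea, 0.306 and 0.576 in vagina, 5.44 and 4.10 in thymus and 0.374 and 0.375 in whisker. In recovered cells, Ccl20 was measured at 7.43 and 9.64 CPM in bladder, 0.282 and 0.547 in trachea, 1.09 and 1.04 in vagina, 0.382 and 0.231 in thymus and 0.967 and 0.696 in whisker. The bladder, tracheal and thymic cells lay lower after recovery. For Ccl20 the log2 change was -1.99 ± 0.22 (adjusted p = 1.17e-06) in bladder, -3.59 ± 0.64 (adjusted p = 0.000333) in trachea and -3.94 ± 0.68 (adjusted p = 0.000178) in thymus, and vagina (1.32 ± 0.73) and whisker (1.08 ± 0.79) gave no call.

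Ccl2 was found before transplantation at 14.4 and 14.7 CPM in bladder, 2.19 and 1.93 in trachea, 0.994 and 0.797 in vagina, 0.357 and 0.0828 in thymus and 0.499 and 0.375 in whisker. Recovered cells had Ccl2 at 2.05 and 2.28 CPM in bladder, 0.563 and 0.292 in trachea, 1.63 and 1.15 in vagina, 1.44 and 1.09 in thymus and 1.52 and 2.29 in whisker. Thus Ccl2 fell where it had been highest and rose in thymus and whisker, the tissues with the least before. The log2 change was -2.74 ± 0.23 (adjusted p = 3.65e-08) in bladder, -2.32 ± 0.42 (adjusted p = 0.000355) in trachea, 2.66 ± 0.52 (adjusted p = 0.000564) in thymus and 2.06 ± 0.43 (adjusted p = 0.00213) in whisker. Its neighbour in function, Ccl7, fell in bladder (1.99 to 0.537 CPM) and trachea (1.26 to 0.250 CPM). Ccl6 rose in trachea and thymus and fell in vagina and whisker, all at group means under 6 CPM. Its tracheal call was lost without the 2nd sample of either round (adjusted p = 0.224 and 0.101) and its whisker call without the 1st sample before transplantation or either recovered one (adjusted p between 0.0561 and 0.133).

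The colony-stimulating factors, which drive the formation and survival of granulocytes and macrophages, fell in bladder. There, 3 of the 4 genes of this group, which includes the receptor gene Csf2ra, were called lower. Of the named genes 22.2%, and of all tested genes 11%, fell in bladder. Before transplantation, Csf3 stood at 144 and 271 CPM in bladder, 85.9 and 76.1 in trachea, 66.6 and 62.7 in vagina, 75.8 and 61.3 in thymus and 3.58 and 3.61 in whisker. After recovery, the Csf3 levels were 60.8 and 59.4 CPM in bladder, 42.2 and 47.2 in trachea, 7.21 and 7.03 in vagina, 39.6 and 39.3 in thymus and 21.8 and 18.5 in whisker. Csf3, the granulocyte factor, fell in bladder (log2 change -1.72 ± 0.19, adjusted p = 1.3e-06) and vagina (-3.18 ± 0.28, adjusted p = 2.41e-07) and rose in whisker (2.47 ± 0.40, adjusted p = 0.000248). In trachea and thymus it passed the adjusted p but not the 2-fold limit, with log2 changes of -0.85 and -0.79.

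The cultures before transplantation held Csf1 at 32.5 and 40.6 CPM in bladder, 21.9 and 21.4 in trachea, 8.37 and 8.20 in vagina, 13.1 and 14.4 in thymus and 9.48 and 7.50 in whisker. The recovered cells held Csf1 at 8.86 and 8.61 CPM in bladder, 12.2 and 10.7 in trachea, 7.21 and 7.24 in vagina, 14.3 and 14.1 in thymus and 8.89 and 8.02 in whisker. Csf1, the macrophage factor, was called lower in bladder alone (log2 change -2.05 ± 0.13, adjusted p = 1.75e-09). In trachea and vagina it was also lower without overlap but was not called, and its samples overlapped in thymus and whisker. Csf2, the granulocyte and macrophage factor, fell from a mean of 8.60 to 0.532 CPM in bladder and from 3.59 to 0.347 CPM in trachea. Csf2ra, which encodes a chain of the Csf2 receptor, fell in trachea (2.44 to 0.907 CPM) and rose in thymus (0.912 to 2.08 CPM), the latter by under 2-fold (0.95) without the 1st recovered sample.

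Among the interleukin-1 family genes, Il36rn, Il1r2, Il1f10 and Il1rap had their highest means in whisker in both rounds. Whisker levels bear on the choice of genes, so this is a description without a test. Il36rn encodes the antagonist of the interleukin-36 receptor, and Il1r2 a decoy receptor that binds interleukin-1 without signalling. Levels of Il36rn before transplantation were 0.112 and 0.0431 CPM in bladder, 0 and 0.0402 in trachea, 4.21 and 5.49 in vagina, 1.59 and 1.37 in thymus and 123 and 141 in whisker. In recovered cells, Il36rn was measured at 16.4 and 15.9 CPM in bladder, 1.93 and 1.97 in trachea, 29.4 and 28.7 in vagina, 1.36 and 1.55 in thymus and 87.2 and 97.5 in whisker. Whisker was by far the highest in both rounds, and bladder, trachea and vagina moved up without overlap. The ratio for bladder was 202 (95% exact interval for counting error, 78.4 to 742), from 4 counts over both samples before to 714 after. Tracheal cells went from 1 count to 95, a ratio of 99.2 (17.4 to 3960). The vaginal log2 change was 2.60 ± 0.15 (adjusted p = 1.72e-09), while thymus (-0.01 ± 0.31) gave no call and whisker (-0.51 ± 0.08) did not reach 2-fold.

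Il1r2 was found before transplantation at 1.16 and 0.905 CPM in bladder, 0.423 and 0.443 in trachea, 0.497 and 0.310 in vagina, 0.397 and 0.331 in thymus and 83.4 and 76.1 in whisker. Recovered cells had Il1r2 at 6.57 and 6.5 CPM in bladder, 0.0939 and 0.146 in trachea, 3.81 and 2.96 in vagina, 5.82 and 6.24 in thymus and 35.3 and 39.5 in whisker. Bladder, vagina and thymus rose and whisker fell, yet the recovered whisker cells still had the highest level. Il1r2 had a log2 change of 2.64 ± 0.25 (adjusted p = 1.48e-07) in bladder, 3.00 ± 0.34 (adjusted p = 3.02e-06) in vagina, 3.98 ± 0.33 (adjusted p = 7.37e-08) in thymus and -1.09 ± 0.08 (adjusted p = 8.01e-08) in whisker. In trachea it fell at levels near the floor, from 22 counts to 6, a ratio of 3.51 (1.38 to 10.6), a call that was lost without the 2nd sample before transplantation or either recovered sample (adjusted p between 0.0522 and 0.0938). Il1f10, a family member held to be anti-inflammatory, fell in whisker from 14.5 to 3.39 CPM and rose in vagina from 2 counts to 51, a ratio of 23.6 (6.21 to 200). In bladder it went from 0 to 8 counts, at least 3.01-fold higher, a call lost without the 1st recovered sample (adjusted p = 0.0683).

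Before transplantation, Il1rl1 stood at 12.0 and 3.62 CPM in bladder, 109.5 and 107 in trachea, 16.9 and 15.2 in vagina, 35.6 and 34.2 in thymus and 2.20 and 3.28 in whisker. After recovery, the Il1rl1 levels were 0.714 and 0.904 CPM in bladder, 9.86 and 12.2 in trachea, 17.2 and 14.7 in vagina, 25.2 and 25.5 in thymus and 8.43 and 9.58 in whisker. Il1rl1, the receptor of interleukin-33, was thus highest in trachea before transplantation and fell there (log2 change -3.29 ± 0.24, adjusted p = 2.32e-08) and in bladder (-3.05 ± 0.66, adjusted p = 0.00082). It rose in whisker (1.75 ± 0.44, adjusted p = 0.00747), a call lost without the 1st whisker sample before transplantation (adjusted p = 0.0901). Il1rap, the co-receptor shared by several of these receptors, was called in no tissue, with log2 changes between -0.17 and 0.25. Its mean before transplantation was 75.4 CPM in whisker and 19.8 to 33.1 CPM in the other tissues. After recovery it was 67.2 CPM in whisker and 23.5 to 32.5 CPM elsewhere. Il18rap, a chain of the interleukin-18 receptor, fell in bladder and rose in thymus.

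**Figure D3:**
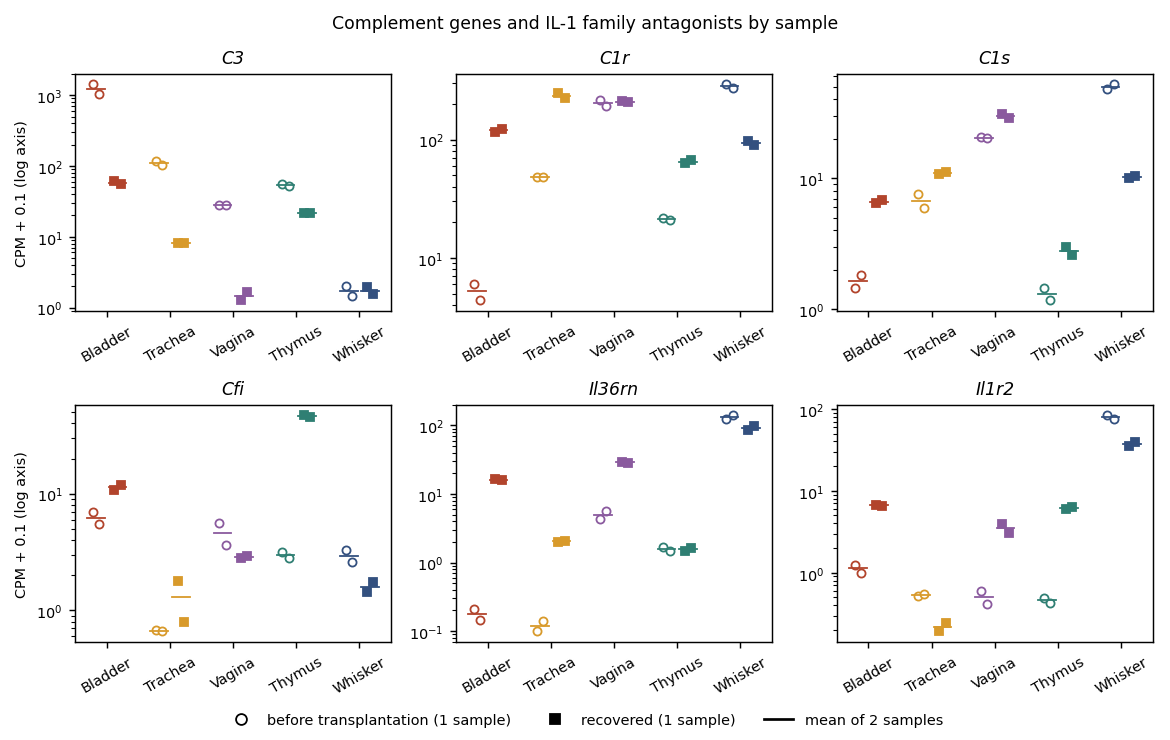
CPM plus 0.1 on log axes for 4 complement genes and 2 interleukin-1 family antagonists, by tissue on the horizontal axis. Open circles are single samples before transplantation, filled squares single recovered samples, and lines means of 2 samples. C3 drops in all tissues but whisker, C1r and C1s move up in bladder and thymus and down in whisker, Cfi moves up in thymus, and Il36rn and Il1r2 are highest in whisker in both rounds.

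In the complement group, the central protein C3 and the starting proteases moved apart. The cultures before transplantation held C3 at 1426 and 1036 CPM in bladder, 119 and 104 in trachea, 27.9 and 27.7 in vagina, 55.7 and 52.3 in thymus and 1.91 and 1.36 in whisker. The recovered cells held C3 at 60.9 and 55.7 CPM in bladder, 8.17 and 8.13 in trachea, 1.17 and 1.53 in vagina, 21.3 and 21.4 in thymus and 1.84 and 1.43 in whisker. The recovered cells of bladder, trachea, vagina and thymus lay below the earlier ones without overlap, and whisker cells overlapped at the lowest level of the tissues before transplantation. The log2 change of C3 was -4.38 ± 0.12 (adjusted p = 1.66e-13) in bladder, -3.77 ± 0.17 (adjusted p = 1.01e-10) in trachea, -4.34 ± 0.32 (adjusted p = 2.39e-08) in vagina and -1.34 ± 0.13 (adjusted p = 5.61e-07) in thymus, and -0.01 ± 0.42 in whisker. Of the 48 genes, C3 was the 1 gene called lower in 4 tissues.

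Levels of C1r before transplantation were 5.94 and 4.31 CPM in bladder, 48.3 and 48.2 in trachea, 215 and 193 in vagina, 21.9 and 20.8 in thymus and 293 and 271 in whisker. In recovered cells, C1r was measured at 117 and 123 CPM in bladder, 246 and 224 in trachea, 212 and 206 in vagina, 63.2 and 67.1 in thymus and 97.0 and 90.0 in whisker. Bladder, trachea and thymus rose, whisker fell, and the vaginal samples overlapped. For C1r it amounted on the log2 scale to 4.55 ± 0.14 (adjusted p = 5.44e-13) in bladder, 2.28 ± 0.09 (adjusted p = 1.51e-11) in trachea, 1.61 ± 0.10 (adjusted p = 1.92e-09) in thymus and -1.59 ± 0.08 (adjusted p = 1.47e-09) in whisker.

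C1s was found before transplantation at 1.34 and 1.72 CPM in bladder, 7.46 and 5.88 in trachea, 20.5 and 20.1 in vagina, 1.35 and 1.08 in thymus and 47.99 and 52.1 in whisker. Recovered cells had C1s at 6.33 and 6.71 CPM in bladder, 10.6 and 11.2 in trachea, 30.9 and 28.8 in vagina, 2.89 and 2.51 in thymus and 9.95 and 10.4 in whisker. C1s, the partner protease of C1r, rose in bladder (log2 change 2.10 ± 0.22, adjusted p = 4.42e-07) and thymus (1.13 ± 0.25, adjusted p = 0.00156) and fell in whisker (-2.29 ± 0.10, adjusted p = 4.07e-10). In thymus the change was under 2-fold, at 0.98, without the 2nd sample before transplantation. C1rl, a related protease, rose in bladder and trachea.

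Cfi, which encodes the protease factor I, rose in thymus from 2.90 to 46.0 CPM, and was called in no other tissue. Cfp, or properdin, was called in none.

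Of the 3 genes of the TNF family group, Tnfaip3 encodes A20, a brake on NF-kB, and Tnfsf9 the co-stimulatory ligand 4-1BBL. The cultures before transplantation held Tnfaip3 at 117 and 148 CPM in bladder, 105 and 93.0 in trachea, 22.4 and 24.9 in vagina, 129 and 137.4 in thymus and 5.91 and 5.20 in whisker. The recovered cells held Tnfaip3 at 169 and 177 CPM in bladder, 24.1 and 24.1 in trachea, 34.9 and 28.1 in vagina, 25.3 and 26.7 in thymus and 9.03 and 9.78 in whisker. Trachea and thymus fell (log2 change -2.04 ± 0.12, adjusted p = 2.31e-09, and -2.35 ± 0.12, adjusted p = 1.67e-10), and bladder, vagina and whisker, although without overlap, stayed under 2-fold.

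Levels of Tnfsf9 before transplantation were 1.75 and 1.55 CPM in bladder, 2.73 and 2.25 in trachea, 23.0 and 17.6 in vagina, 12.4 and 12.0 in thymus and 44.6 and 45.5 in whisker. In recovered cells, Tnfsf9 was measured at 19.2 and 19.0 CPM in bladder, 11.9 and 12.8 in trachea, 13.6 and 12.1 in vagina, 18.2 and 18.4 in thymus and 48.1 and 43.0 in whisker. Tnfsf9 rose in bladder (log2 change 3.51 ± 0.23, adjusted p = 2.01e-09) and trachea (2.31 ± 0.20, adjusted p = 1.76e-07) and gave no call elsewhere. Tnfrsf26 was called in no tissue.

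The interferon genes did not move as 1 block. Ifit2, an interferon-induced protein that binds RNA, fell in 3 tissues and rose in whisker, and Irf8, a transcription factor of myeloid cells that epithelia can also express, was called in none. Ifit2 was found before transplantation at 6.24 and 3.75 CPM in bladder, 42.8 and 48.5 in trachea, 28.4 and 29.4 in vagina, 42.0 and 43.2 in thymus and 0.125 and 0.328 in whisker. Recovered cells had Ifit2 at 5.0 and 5.21 CPM in bladder, 18.1 and 18.2 in trachea, 1.47 and 1.29 in vagina, 11.2 and 11.1 in thymus and 2.49 and 2.01 in whisker. The groups overlapped in bladder only. The log2 change of Ifit2 was -1.33 ± 0.11 (adjusted p = 1.69e-07) in trachea, -4.38 ± 0.26 (adjusted p = 1.76e-09) in vagina, -1.93 ± 0.12 (adjusted p = 3.78e-09) in thymus and 3.33 ± 0.52 (adjusted p = 0.000179) in whisker.

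Before transplantation, Irf8 stood at 46.1 and 42.2 CPM in bladder, 77.1 and 78.1 in trachea, 33.3 and 33.0 in vagina, 102 and 92.1 in thymus and 15.1 and 14.8 in whisker. After recovery, the Irf8 levels were 89.3 and 86.9 CPM in bladder, 57.8 and 61.3 in trachea, 34.5 and 33.0 in vagina, 72.6 and 75.6 in thymus and 8.20 and 8.39 in whisker. The log2 changes of Irf8 ran from -0.85 in whisker to 0.995 in bladder, just under the 2-fold limit. Isg15, a ubiquitin-like interferon product, fell in trachea from 5.39 to 2.39 CPM (under 2-fold, at -0.96, without the 1st earlier sample) and in thymus from 11.9 to 2.99 CPM. Ifi47, an interferon-induced GTPase, fell in vagina from 28.1 to 4.33 CPM but rose in thymus from 5.75 to 37.2 CPM, against the direction of Ifit2 there.

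The cultures before transplantation held Ifitm1 at 18.6 and 6.47 CPM in bladder, 1.54 and 1.29 in trachea, 0.420 and 0.310 in vagina, 9.88 and 8.82 in thymus and 0 and 0 in whisker. The recovered cells held Ifitm1 at 0.0476 and 0.0861 CPM in bladder, 0.610 and 0.802 in trachea, 0.126 and 0.0348 in vagina, 2.97 and 3.07 in thymus and 0 and 0.0409 in whisker. Ifitm1, a membrane protein that hinders virus entry, fell in bladder from 648 counts over both samples to 3, a ratio of 191 (95% exact interval for counting error, 65.1 to 929). The 2 bladder samples before transplantation differed nearly 3-fold from each other. It also fell in thymus (log2 change -1.62 ± 0.41, adjusted p = 0.00369). Gbp5, a guanylate-binding protein, fell in bladder from 25.1 to 7.38 CPM and was called in no other tissue.

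Cd74 is the invariant chain that escorts MHC class II molecules, and Nlrc5 a transcriptional activator of MHC class I genes. Levels of Cd74 before transplantation were 49.95 and 24.9 CPM in bladder, 14.6 and 12.6 in trachea, 1.41 and 0.975 in vagina, 4.604 and 2.86 in thymus and 1.29 and 1.08 in whisker. In recovered cells, Cd74 was measured at 9.90 and 9.26 CPM in bladder, 6.43 and 4.52 in trachea, 4.44 and 3.76 in vagina, 2.97 and 2.90 in thymus and 2.58 and 2.91 in whisker. Bladder and trachea fell (log2 change -1.89 ± 0.27, adjusted p = 1.52e-05, and -1.36 ± 0.33, adjusted p = 0.00381) and vagina rose (1.75 ± 0.60, adjusted p = 0.0294). The vaginal call was lost without either earlier sample or the 1st recovered one (adjusted p between 0.082 and 0.142) and the tracheal call without the 2nd recovered sample (adjusted p = 0.0658). Ciita, which encodes the activator of MHC class II genes and is not among the 48, was called in the same direction as Cd74 in bladder (11.4 to 4.86 CPM) and vagina (1.20 to 2.94 CPM).

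Nlrc5 was found before transplantation at 13.7 and 9.79 CPM in bladder, 6.54 and 8.45 in trachea, 4.93 and 4.83 in vagina, 4.88 and 6.25 in thymus and 1.29 and 0.844 in whisker. Recovered cells had Nlrc5 at 9.57 and 8.27 CPM in bladder, 5.21 and 5.69 in trachea, 2.93 and 2.16 in vagina, 7.35 and 8.78 in thymus and 2.72 and 1.92 in whisker. No tissue was called for Nlrc5. Its log2 changes lay between -0.97 ± 0.27 in vagina and 1.09 ± 0.41 (adjusted p = 0.0614) in whisker.

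Of the 7 caspases, 1 rose in bladder, 1 in trachea and 3 in thymus, and 0 were called in vagina or whisker. The shares that rose were 14.3%, 14.3% and 42.9%. In the same order, 10.1%, 4.39% and 8.49% of all tested genes rose, and 20.9%, 10.1% and 19.3% of the named genes. Calls in either direction were made for 11.8% of all tested genes in vagina and 5.98% in whisker. In thymus, the initiator Casp2 and the inflammatory Casp4 and Casp12 rose, from 46.2 to 95.9 CPM, 13.5 to 29.3 CPM and 13.6 to 36.8 CPM. The Casp2 change was under 2-fold, at 0.91, without the 1st thymic sample before transplantation. Casp8 was called in no tissue.

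The cultures before transplantation held Casp14 at 2.65 and 1.68 CPM in bladder, 5.73 and 5.71 in trachea, 24.5 and 25.5 in vagina, 8.73 and 8.41 in thymus and 112 and 87.4 in whisker. The recovered cells held Casp14 at 8.47 and 8.39 CPM in bladder, 24.2 and 17.5 in trachea, 30.5 and 30.7 in vagina, 8.49 and 7.46 in thymus and 54.2 and 59.9 in whisker. Casp14, the caspase of cornifying epidermis, rose in bladder (log2 change 1.97 ± 0.30, adjusted p = 3.07e-05) and trachea (1.83 ± 0.20, adjusted p = 2.14e-06). Whisker cells held the most Casp14 in both rounds and did not reach 2-fold (-0.80 ± 0.12).

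Genes of the same pathways that are not among the 48 were followed as 5 lists, all drawn from the same 2311 named genes. The shares of named and of all tested genes that rose or fell in each tissue, given above, are the background for these counts. Of 12 other cytokines and receptors, 3 rose and 2 fell in bladder, 1 and 2 in trachea, 1 and 4 in vagina, 4 and 1 in thymus and 3 and 0 in whisker. In this list Cx3cl1, a membrane-bound chemokine, fell in bladder from 50.1 to 1.42 CPM and rose in thymus from 0.544 to 3.26 CPM. Cxcr2, the receptor for Cxcl1, Cxcl3 and Cxcl6, rose in bladder (9.55 to 20.4 CPM), trachea (2.17 to 5.48 CPM) and whisker (0.856 to 3.04 CPM) and fell in vagina (12.3 to 5.78 CPM). Of 10 regulators of NF-kB, death receptors and inflammasomes, 2 rose and 2 fell in bladder, 2 and 1 in trachea, 0 and 3 in vagina, 4 and 0 in thymus and 2 and 2 in whisker. Aim2, a cytosolic DNA sensor, rose in 4 tissues, from 2.25 to 16.0 CPM in bladder, 2.30 to 5.602 CPM in trachea, 0.934 to 21.4 CPM in thymus and 2.73 to 22.1 CPM in whisker.

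Among 8 other interferon-response genes, 5 fell and 0 rose in vagina, among them Slfn5 (27.0 to 2.23 CPM) and Irgm (53.2 to 12.7 CPM). That is 62.5% lower, beside 17.8% of the named and 7.53% of all tested genes. In the other tissues 2 rose and 2 fell in bladder, 1 and 2 in trachea, 1 and 1 in thymus and 1 and 0 in whisker. Of 9 other genes of antigen presentation and co-stimulation, 5 fell and 2 rose in bladder, and at most 4 were called in any other tissue. In bladder 55.6% of this list fell, beside 22.2% of the named and 11% of all tested genes. The bladder genes that fell included Cd274, which encodes PD-L1 (8.13 to 0.902 CPM), and the one for the co-stimulator Cd86 (2.05 to 0.534 CPM). Of 5 other complement genes and regulators, between 0 and 3 were called per tissue, and Cd55, a decay accelerator, fell in thymus from 240.3 to 33.0 CPM.

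Levels of the 48 genes lay closer together across the tissues after recovery. Before transplantation, 25 of the genes had their highest mean in bladder, 12 in whisker, 4 each in thymus and trachea and 3 in vagina. After recovery 20 were highest in bladder, 10 in thymus, 8 in whisker, 5 in trachea and 5 in vagina. The SD of a gene's log2 CPM over the 5 tissue means had a median of 1.90 before and 0.99 after recovery, and it was smaller after recovery for 42 of the 48 genes (87.5%). Over all tested genes the SD was smaller for 61.8% (median 0.42 before and 0.35 after) and over the named genes for 71.6% (0.96 and 0.72). Since the names come from a comparison of both rounds with whisker cells, these figures are a description without a test. Taken over bladder, trachea, vagina and thymus only, the SD was smaller after recovery for 30 of the 48 genes (62.5%), beside 57.7% of the named and 53.7% of all genes. The median SD over these 4 tissues went from 1.44 to 0.94 for the 48 genes, from 0.77 to 0.66 for the named and from 0.37 to 0.34 for all genes. Cxcl6 narrowed from an SD of 3.26 to 1.05. Cxcl10 (0.88 to 2.18) and Cfi (1.24 to 2.21) widened, as did Cxcl11, Cxcl14, Irf8 and Cfp.

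**Figure D4:**
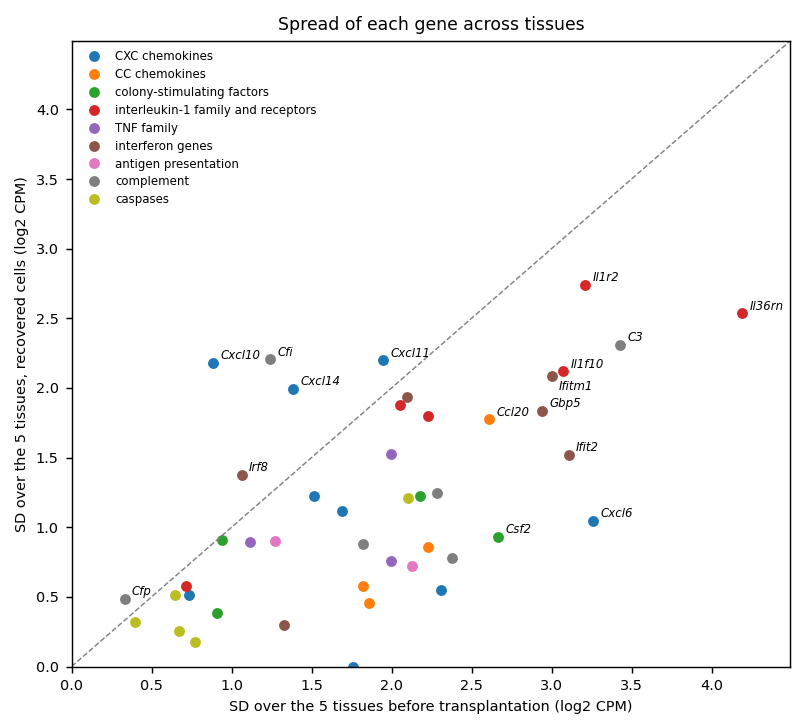
SD of log2 CPM over the 5 tissue means before transplantation (horizontal axis) and in recovered cells (vertical axis), 1 point for each of 45 genes, coloured by role. The dashed line marks equal spread, and 39 of the 45 points lie below it.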

How the data were processed

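Raw read counts per gene, made by the authors, were used for 20 samples. Per the labels and the methods, the authors trimmed reads with Cutadapt 1.8, removed ribosomal RNA, aligned to Rnor 6.0 with STAR 2.5.2b and counted reads per Ensembl gene with HTSeq 0.6.1, and the deposited counts were not normalized. Reads with several alignments were not counted by that step, which lowers genes with near-identical copies. The 5 rows that name no gene were left out of library sizes, among them reads in no gene (13.2 to 19.3% of uniquely placed reads per sample). From the counts, TMM-scaled CPM and limma 3.58.1 (voom) tests were computed in R 4.3.3 with edgeR 4.0.16 in one model of 10 group means. The filter (1 CPM or more in any sample) kept 13302 of 32494 genes. Benjamini-Hochberg adjustment ran over all of them per comparison, and calls needed an adjusted p under 0.05 and 2-fold. The tests were tried on simulated counts. With 2 samples a group, an exact permutation test cannot go below 0.333. For the spread of levels, a prior count of 2 was added before taking log2. CPM is not corrected for transcript length, so levels were not compared between genes. Intervals for ratios of counts are exact binomial (95%) and cover counting error only. Values in every sample are given for the 2 genes of each role with the highest group mean and, per tissue, for the called genes with the largest rise and fall at 1 CPM or more in the higher group. Of the 48 genes, 3 enter the counts but are not reported here one by one. Genes outside this rule were named after their values were seen. The members and lists were chosen with earlier results of these data known.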

Additional observations from a re-analysis of the deposited data

Results flagged for a closer look

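For 20 of the genes with values in every sample, the change on recovery differed among the 5 tissues by the F test of the limma fit, and each is given by its largest minus its smallest log2 change. Among chemokines this range was 4.82 for Cxcl3, 5.37 for Cxcl6, 5.98 for Cxcl17, 5.39 for Ccl2 and 5.26 for Ccl20. It was 2.10 for Csf1 and 5.66 for Csf3. In the interleukin-1 family it was 7.95 for Il36rn, 5.67 for Il1r2 and 5.04 for Il1rl1. Tnfaip3 had a range of 3.11 and Tnfsf9 of 4.17. Ifit2 spanned 7.71 and Irf8 1.85. The range was 3.65 for Cd74 and 2.06 for Nlrc5. In the complement group it was 6.14 for C1r, 4.39 for C1s and 4.37 for C3. Casp14 spanned 2.76. The ranges of Cxcl17, Il36rn and Il1r2 rest on fitted values of groups averaging at or under 3 counts per sample. They depend on how such counts are fitted. Of all tested genes, 77.2% passed the same test.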

How the results depend on the processing

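At a log2 fold change of at least 2, the genes called numbered 7 instead of 11 in vagina, 11 instead of 24 in thymus, 6 instead of 11 in whisker and 3 instead of 12 on the average of the tissues. The edgeR and DESeq2 1.42.0 tests, DESeq2 size factors, no or a stricter low-count filter and leaving out single samples kept the counts within 1.5 times. All 98 calls of a gene in a tissue held with edgeR, DESeq2, its size factors, the stricter filter and the replicate block, and 1 was lost without a filter. Leaving out 1 sample gave 25 to 29 genes in bladder, 22 to 26 in trachea, 9 to 15 in vagina, 22 to 26 in thymus, 9 to 13 in whisker and 11 to 13 on average, 42 to 47 genes whose change differed among the tissues, and 45 to 47 before and 40 to 42 after recovery that differed among the 4 tissues, with up to 5 calls lost, and no call reversed. A lone sample was then assumed to vary like the other groups. The count of 42 genes with a smaller spread stayed 42 at prior counts of 0.5 and 5 and was 30 over the 4 tissues other than whisker, a choice made after seeing the data.

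Replicate numbers did not pair the samples, as the correlations of same-numbered deviations over 45 pairs of groups ran from -0.123 to 0.24. With the replicate block, 26 genes were called in bladder, 26 in trachea, 12 in vagina, 25 in thymus and 11 in whisker. Depth limits genes near 3 counts. Their ratios of counts are given with an interval for counting error or as a lower bound.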
